A study of Mus musculus with 6 samples.

Results

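The clustered protocadherins are a family of cell-surface adhesion molecules encoded by tandem arrays of similar genes. The members described here are the rows of the count table whose symbol is that of an alpha (Pcdha), beta (Pcdhb) or gamma (Pcdhg) cluster gene and whose counts summed to at least 10 over the 6 retinae. Of 58 such symbols among 24062 genes, 57 met the minimum: 13 of the alpha cluster, 22 of the beta cluster and 22 of the gamma cluster. Pcdha4 was listed at 0 in all 6 retinae (a listing at 0 is compatible with as many as 3 counts). A longer annotated gene, Gm37013 (chr18:36952648-37841873), has Pcdha4 among its synonyms and spans the whole of Pcdha4. By its coordinates it also spans the members from Pcdha5 to Pcdhgc5, which do have counts. Another of its synonyms, Pcdha4-g, is not a symbol of the members, and a gene of that name was left out of the genes around the clusters described below. Whether Gm37013 bears on the 0 was not tested.

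Each alpha and gamma gene joins its own large variable exon, which encodes the extracellular cadherin repeats, to 3 small constant exons shared by its whole cluster, whereas each beta gene is a single exon. Individual neurons switch on a few members by promoter choice, a step that involves CTCF, cohesin and DNA methylation, and the resulting set of isoforms serves as a surface identity through which branches of the same neuron recognise each other. The C-type members (Pcdhac1, Pcdhac2, Pcdhgc3, Pcdhgc4 and Pcdhgc5) sit at the ends of the alpha and gamma arrays and are regulated apart from the others. In the retina the gamma cluster is known for dendrite self-avoidance in starburst amacrine cells and for the survival of interneurons and ganglion cells. HELLS, the chromatin remodeler deleted in this study, assists DNA methylation.

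Retinae were taken from C57BL/6 mice (C57BL/6N in the study's methods) at postnatal day 21 (P21), 3 of genotype Chx10-Cre Rb1/p107 (DKO) and 3 of genotype Chx10-Cre Rb1/p107/Hells (TKO), with 1 RNA-seq library each. All 6 mice carried floxed Rb1 deleted by Chx10-Cre and lacked p107 (Rbl1) in every cell, and the TKO mice also carried floxed Hells. Chx10-Cre acts in retinal progenitor cells and is mosaic, so each retina also held cells that kept the floxed genes. The comparison therefore addresses what the loss of Hells changed in retinae that lacked the RB family members RB1 and p107, and holds no retina with an intact RB family.

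The libraries held between 10343907 and 14203098 counts. Levels are given as CPM, the counts per 1000000 counts of the TMM-scaled library, and normalized counts are the same values at the mean library size. Hells had 60.8, 68.4 and 83.4 normalized counts in the TKO retinae and 678, 523 and 395 in the DKO retinae, a log2 fold change (TKO over DKO) of -2.91 (SE 0.225, adjusted p = 0.00359). Rb1 differed by 0.34 (adjusted p = 0.0388, a call lost under scaling by totals at 0.18, adjusted p = 0.176, and without any 1 retina other than TKO retina 3, at adjusted p of 0.0747 to 0.129) and Rbl1 by 0.13 (adjusted p = 0.839); counts over a whole gene do not measure the deleted exons alone. The defining rod genes were present in every library and all 8 rose in the TKO (summed level 26657 to 54128 CPM in TKO and 9085 to 17328 in DKO). All 8 genes of dividing cells fell (43.4 to 171 against 427 to 914 CPM), as did 4 of 6 microglial genes. The log2 fold changes of the dividing cell genes ran from -3.21 to -2.52, a range that holds the value of Hells. Their part in the Hells value was not tested. Of 7 amacrine, 9 ganglion cell and 5 horizontal cell markers none passed the test. Their median log2 fold changes were -0.25, 0.18 and -0.70, with the horizontal marker Onecut1 at -1.24 (separate groups, adjusted p = 0.0511). Of 6 starburst amacrine markers only Sox2 passed (log2 fold change -1.15). In other lists, 3 of 8 bipolar, 2 of 6 cone, 1 of 4 endothelial and 1 of 5 pigment epithelium genes rose. Of 6 Muller glia genes 2 rose and 1 fell, and of 4 astrocyte and gliosis genes 1 fell. The 8 lens markers summed to between 38.3 and 243 CPM in the TKO retinae, highest in retina 2, and to between 8.40 and 8.44 in the DKO retinae. In bulk retina, fewer cells of a type and less RNA per cell cannot be told apart. The part of these differences in the protocadherin values below was not tested.

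The 58 genes lie on the plus strand of mouse chromosome 18 (GRCm38) over 912 kb. The alpha cluster spans chr18:36930184-37187661, the beta cluster chr18:37264938-37524479 and the gamma cluster chr18:37661793-37841873. Their sequences resemble each other, which bears on the counting. The 100-base windows in the unshared exonic part of each member were searched for exact copies in transcripts of other members and of genes outside the locus. Up to 7.67% of the windows had a copy in the numbered alpha genes and 9.80% in the gamma B genes (Pcdhgb2). The highest share was 2.30% in the beta genes and 1.54% in the gamma A genes, and the C-type genes had none. Other gene models that overlap the locus were left out, and inexact copies were not counted. Reads from the shared constant exons cannot be given to a single alpha or gamma gene. Values of individual alpha and gamma B genes are uncertain to at least that degree.

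Across the 57 members, the clustered protocadherins showed little measured difference between TKO and DKO retinae. Counts of a whole retina sum over its cells, so the choice of members by single cells was not measured. At an adjusted p of at most 0.05 in edgeR's quasi-likelihood test, 1 member was higher in the TKO (Pcdhb18) and 0 were lower, which is 1.75% of the members. Of all 16904 genes tested, 16.6% passed, 7.35% higher and 9.20% lower. DESeq2 also called Pcdhb18 and no other member. With the study's criteria, which also ask for a log2 fold change of 1 or more in size and for 10 or more normalized counts on average, 0 members were called, against 6.35% of all genes. At an unadjusted p under 0.05 there were 8 members (14%), 4 higher and 4 lower, against 33.1% of all genes. The 3 TKO values lay wholly above or below the 3 DKO values in 8 members (14%), against 38.6% of all genes.

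The log2 fold changes of the members ran from -0.34 to 0.77, with 39 above 0 and 18 below. Their median was 0.11, and that of all genes tested -0.01. When libraries were scaled by their totals alone, the median of all genes moved to -0.17 and that of the members to -0.05, and 22 of the 57 were then above 0, so the direction of the members as a group depended on the scaling. The absolute log2 fold change had a median of 0.16 among the members and 0.25 among all genes, and it was under 0.5 in 54 of the 57. These were not abundant genes: the members' mean normalized counts ran from 6.34 to 1066 with a median of 122.6, against 298 for all genes, and the median SE of a log2 fold change was 0.18 against 0.15. The 95% interval of the log2 fold change nevertheless lay within -1 and 1 for 50 of the 57 (87.7%, against 66.4% of all genes). For the other 7 (Pcdha1, Pcdha5, Pcdha6, Pcdha8, Pcdhb1, Pcdhga9 and Pcdhgb8) a difference of that size was not excluded at this depth.

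**Figure D1:**
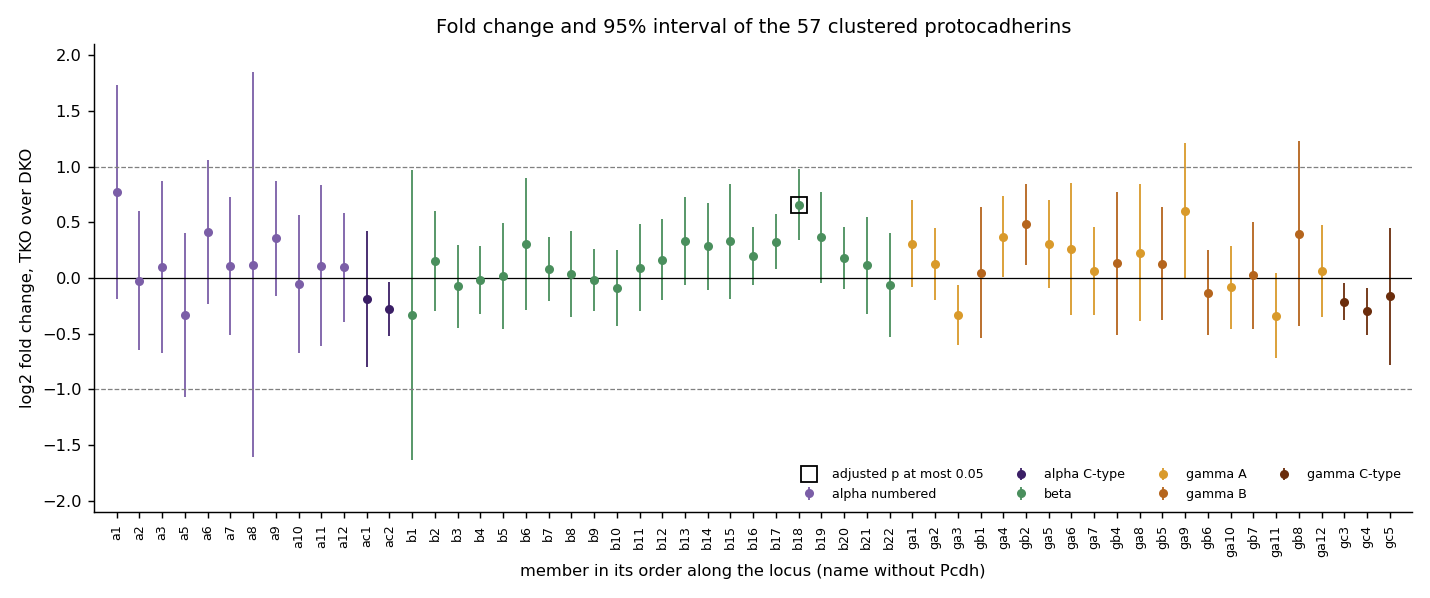
Log2 fold change (TKO over DKO, points) of each of the 57 members with its 95% interval (lines), in their order along the locus and coloured by subgroup; dashed lines mark a log2 fold change of 1 in either direction. Only Pcdhb18 is boxed as passing the adjusted test, most intervals cross 0, and the 5 C-type members all lie below it.

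**Figure D2:**
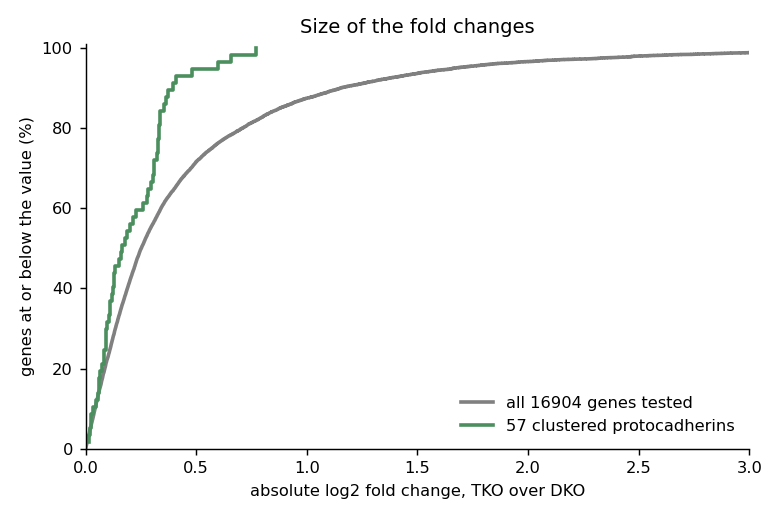
Share of genes (vertical axis, %) whose absolute log2 fold change was at or below the value on the horizontal axis, for the 57 members and for all 16904 genes tested. The members' curve lies mostly above the other and ends at 0.77, while the curve of all genes runs on beyond 3.

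The levels of the members were ordered much alike in both genotypes. Levels of different genes were compared as CPM per kilobase of exonic sequence that no other counted gene on the strand shares. Annotated genes whose names the count table lacks were not subtracted. The highest was Pcdhgc3, a C-type member, at 23.1 ± 0.732 (SD, n = 3) in TKO and 26.8 ± 1.03 in DKO. It was followed by Pcdhgc4, which is the gamma member required for neuronal survival, at 14.02 ± 0.329 and 17.2 ± 1.64. Pcdhb9 came next, with 12.6 ± 1.68 and 12.7 ± 1.16, and the alpha C-type member Pcdhac2 stood at 6.93 ± 0.426 and 8.41 ± 0.406. The lowest were Pcdha8 (0.328 ± 0.0251 and 0.298 ± 0.341) and Pcdhb1 (0.17 ± 0.111 and 0.217 ± 0.0663).

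The median member stood at 2.95 CPM per kilobase, and the highest level was 129 times the lowest. Of the 56 pairs of neighbours in the order of level, 55 overlapped in their ranges over the 6 retinae of both genotypes, and the exception was Pcdhgc3 over Pcdhgc4. Neighbours in a sorted order lie close by construction, so this count says only that single places are not settled. Places in the order depend on the length used. Over all exonic bases, Pcdhb9 (12.6) stood above Pcdhgc4 (9.71), and Pcdhgc3 was still highest (15.3). For Pcdhga4 the level was 9.61 when divided by the 1570 bases not shared with another counted gene, but 3.19 over all its 4727 exonic bases. Across the members, the TKO and DKO mean levels had a Spearman correlation of 0.979 and a Pearson correlation of 0.981 on the log2 scale (n = 57 genes of the same libraries, which share gene lengths and are not independent replicates).

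**Figure D3:**
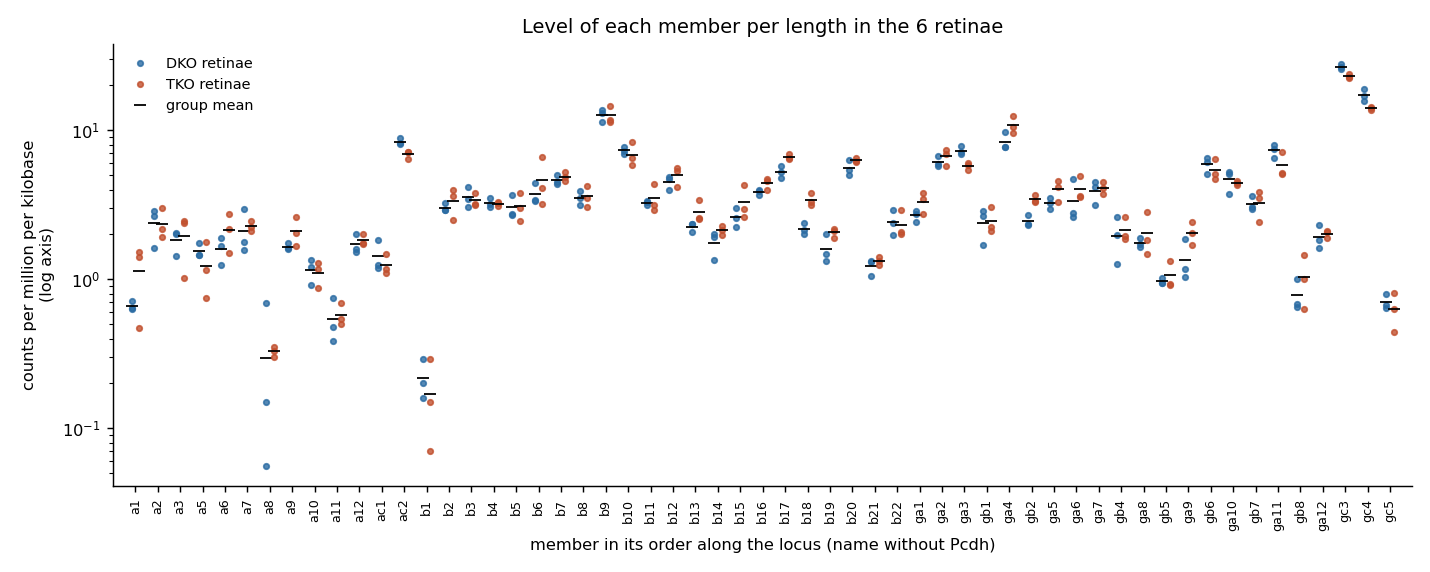
Level of each member in CPM per kilobase of unshared exonic bases (log axis), in its order along the locus. Points are single retinae (3 DKO in blue, 3 TKO in orange) and bars are group means; Pcdhgc3 and Pcdhgc4 stand highest and Pcdhb1 and Pcdha8 lowest, and the colours of most members overlap.

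In the beta cluster the only member past the test was Pcdhb18. It had 211, 201 and 243 normalized counts in the TKO retinae and 136, 129 and 151 in the DKO retinae. Each TKO value lay above each DKO value. The log2 fold change was 0.66 (SE 0.139, 95% interval 0.34 to 0.97, adjusted p = 0.0179 in edgeR and 0.00295 in DESeq2). Pcdhb18, a single-exon gene at chr18:37489465-37494505, starts directly beyond the annotated end of Pcdhb17. It did not pass without TKO retina 2 (adjusted p = 0.0547), without DKO retina 1 (0.0684) or without DKO retina 2 (0.0838), although its log2 fold change was 0.71, 0.64 and 0.61 there. In these fits the calls over all genes fell from 2799 to 712, 811 and 647.

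The neighbour Pcdhb17 had 407, 386 and 376 normalized counts in TKO and 309, 284 and 342 in DKO. Its groups did not overlap either, at a log2 fold change of 0.32 (SE 0.108, adjusted p = 0.0753). Pcdhb19, on the other side of Pcdhb18, had a log2 fold change of 0.36 (adjusted p = 0.194), with overlapping groups. Leaving out DKO retina 3 brought 4 members past the test as higher, namely Pcdhb17 (adjusted p = 0.0476), Pcdhb18 (0.0185), Pcdhb19 (0.0467) and the gamma member Pcdhga9 (0.0412). Leaving out TKO retina 1 brought Pcdha1 past it beside Pcdhb18 (adjusted p = 0.0462).

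Among the other abundant beta genes, Pcdhb9 had 443, 455 and 561 normalized counts in TKO and 441, 503 and 528 in DKO, a log2 fold change of -0.02 with a 95% interval of -0.30 to 0.26. Pcdhb16 had a log2 fold change of 0.20 (adjusted p = 0.256). By position, Pcdhb1 to Pcdhb12 had a median log2 fold change of 0.03 with 7 of 12 above 0, and Pcdhb13 to Pcdhb22 one of 0.30 with 9 of 10 above 0. The place of this split was chosen after the values were seen, so it is a description only. Pcdhb13 was the remaining beta member whose groups did not overlap (159, 121 and 119 normalized counts against 110, 98.1 and 110, adjusted p = 0.218), and it too is named for its values. Summed over the 22 beta genes, the level was 348 ± 31.5 CPM in TKO and 314 ± 26.0 in DKO (n = 3 each), with overlapping groups. The median log2 fold change of the cluster was 0.13.

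Pcdhb18 also took a larger share of the beta cluster's own counts, a measure that does not depend on how libraries are scaled. It made up 5.11%, 4.76% and 5.00% of them in the TKO retinae and 3.58%, 3.41% and 3.47% in the DKO retinae. The 95% Wilson intervals, which cover counting error only, had their lowest TKO bound at 4.14% and their highest DKO bound at 4.20%. This share and the fold change rest on the same counts and are not separate evidence.

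**Figure D4:**
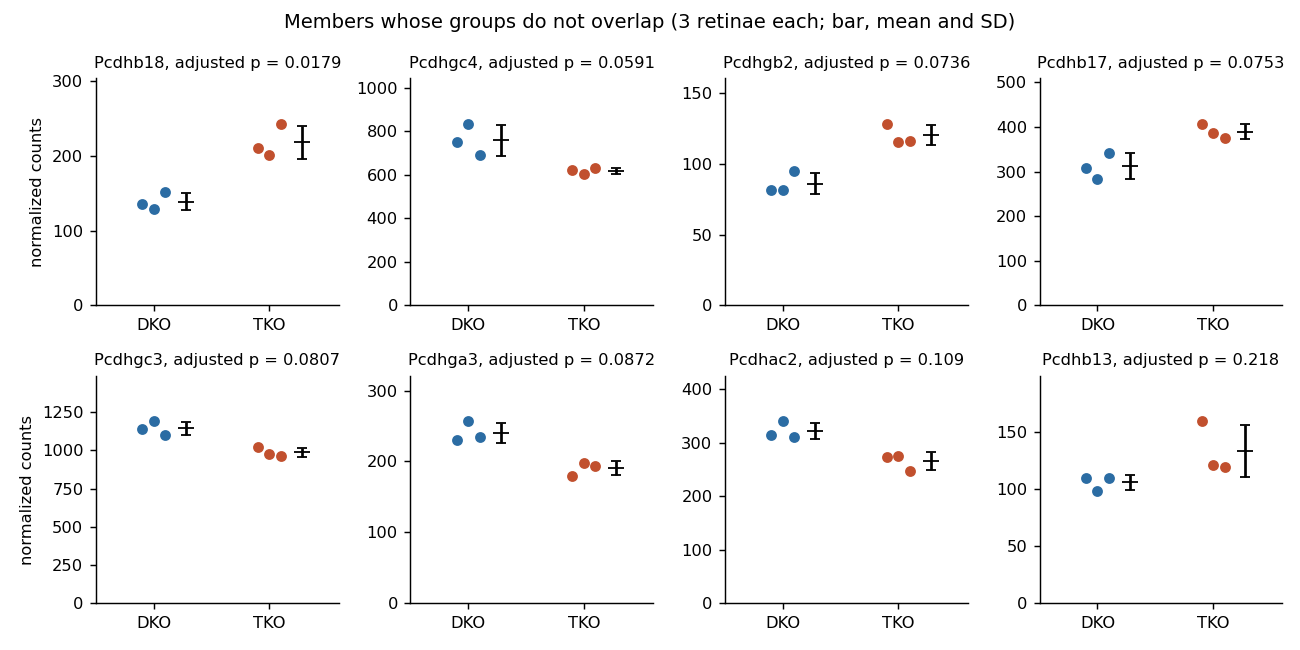
Normalized counts (vertical axes, from 0) of the 8 members whose 3 TKO and 3 DKO values do not overlap, with each retina as a point and the group mean and SD as a bar. Pcdhb18, Pcdhgb2, Pcdhb17 and Pcdhb13 are higher in TKO and Pcdhgc4, Pcdhgc3, Pcdhga3 and Pcdhac2 lower; only Pcdhb18 has an adjusted p of at most 0.05.

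In the alpha cluster no member passed the test. The 11 numbered genes had a median log2 fold change of 0.11, with 8 above 0, and the groups of none of them were separate. Of the best counted, Pcdha2 had 60.8, 68.4 and 94.5 normalized counts in TKO and 83.8, 51.7 and 91.5 in DKO (log2 fold change -0.02), while Pcdha7 and Pcdha3 had log2 fold changes of 0.11 and 0.10. Retinae of the same genotype differed widely. Pcdha1, with the largest fold change of all members, had 14.9, 44.2 and 47.9 normalized counts in TKO and 22.6, 20.1 and 19.9 in DKO, so that TKO retina 1 lay below every DKO retina. Its log2 fold change was 0.77 with a 95% interval of -0.19 to 1.73 (adjusted p = 0.236). Pcdha6 followed with 0.41 (adjusted p = 0.345). The summed alpha level was 67.7 ± 2.84 CPM in TKO and 68.6 ± 4.85 in DKO, and the groups overlapped.

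In the gamma cluster no member passed either, and 5 of the 22 had an unadjusted p under 0.05 (22.7%, against 33.1% of all genes). Pcdhgb2 had 128, 116 and 117 normalized counts in TKO and 81.9, 81.4 and 94.97 in DKO, a log2 fold change of 0.48 (SE 0.159, adjusted p = 0.0736). Pcdhga3 had 179, 198 and 194 in TKO and 230, 257 and 234 in DKO, a log2 fold change of -0.34 (SE 0.118, adjusted p = 0.0872). Both had separate groups, and though they lie near each other in the array their fold changes were of opposite sign. Pcdhga4 had 247, 209 and 190 against 154, 152 and 193 normalized counts, with overlapping groups and an adjusted p of 0.140. Pcdhga9 had the largest fold change of the gamma A genes, 0.60 (adjusted p = 0.156).

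Among the other gamma A and gamma B genes the groups overlapped throughout. The 12 gamma A genes had a median log2 fold change of 0.18 with 9 above 0, and the 7 gamma B genes one of 0.13 with 6 above 0. Pcdhga11 had a log2 fold change of -0.34 (adjusted p = 0.196) and Pcdhga2 one of 0.13. In the B subgroup Pcdhgb6 stood at -0.13, Pcdhgb7 at 0.02 and Pcdhgb8, which is annotated as a polymorphic pseudogene, at 0.40 (adjusted p = 0.481). The summed gamma level was 326 ± 7.45 CPM in TKO and 340 ± 9.09 in DKO, with overlapping groups.

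The 5 C-type members all had log2 fold changes below 0, under each of the 4 scalings. None of them passed the test, except that Pcdhgc3, Pcdhgc4 and Pcdhac2 did under scaling by totals (adjusted p = 0.0164, 0.0227 and 0.0277), which also moved the median of all genes to -0.17. Pcdhgc4 had 619, 601 and 630 normalized counts in TKO and 750, 833 and 690 in DKO, and the groups were separate (log2 fold change -0.30, SE 0.0915, 95% interval -0.51 to -0.09, adjusted p = 0.0591). Pcdhgc3 had 1022, 979 and 961 against 1141, 1190 and 1102, also separate (log2 fold change -0.21, SE 0.0726, 95% interval -0.38 to -0.05, adjusted p = 0.0807). Pcdhac2 had 274, 276 and 247 against 315, 340 and 311, again with every TKO retina below every DKO retina (log2 fold change -0.28, SE 0.106, adjusted p = 0.109). For these 3, which carry most of the counts of the subgroup, the difference was small in size. The sparser Pcdhac1 (log2 fold change -0.19) and Pcdhgc5 (-0.16) had overlapping groups, and each turned above 0 when a single retina was left out (0.041 for Pcdhac1 without DKO retina 3 and 0.036 for Pcdhgc5 without TKO retina 3). Pcdhgc4 also passed under upper-quartile scaling (adjusted p = 0.0496) and without DKO retina 3 (0.0325).

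Summed, the C-type members stood at 160, 153 and 151 CPM in the TKO retinae and at 181, 194 and 174 in the DKO retinae. The TKO mean was 0.842 times the DKO mean. The other 52 members summed to 587 ± 30.2 in TKO and 539 ± 47.7 in DKO, with overlapping groups, and 39 of them had log2 fold changes above 0. All 57 together summed to 742 ± 26.6 and 722 ± 39.3 CPM. The sum over the family thus differed by less than the spread between retinae, at a log2 ratio of 0.04.

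Within the gamma cluster the 3 C-type genes held 40.1%, 39.8% and 40.02% of the counts in the TKO retinae and 45.9%, 49.0% and 41.5% in the DKO retinae. The groups were separate, but the Wilson intervals of DKO retina 3 (40.1% to 42.8%) and TKO retina 1 (38.6% to 41.7%) overlapped. Pcdhac2 held 33.5%, 31.0% and 28.7% of the alpha counts in TKO and 36.4%, 42.1% and 33.4% in DKO, and here TKO retina 1 and DKO retina 3 overlapped. DKO retina 3 was also the DKO retina nearest to the TKO in Hells and in the markers of dividing cells. The starburst amacrine markers, the cell type with the best known gamma protocadherin function, summed to 86.0 to 99.7 CPM in TKO and 114 to 130 in DKO. The lower sum came from Megf10 (log2 fold change -0.44), Sox2 (-1.15) and Fezf1 (-0.90), while the cholinergic genes Chat (0.75), Slc18a3 (0.44) and Slc5a7 (0.21) had fold changes above 0, and of the 6 only Sox2 passed the test. Their part in the C-type values was not tested.

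**Figure D5:**
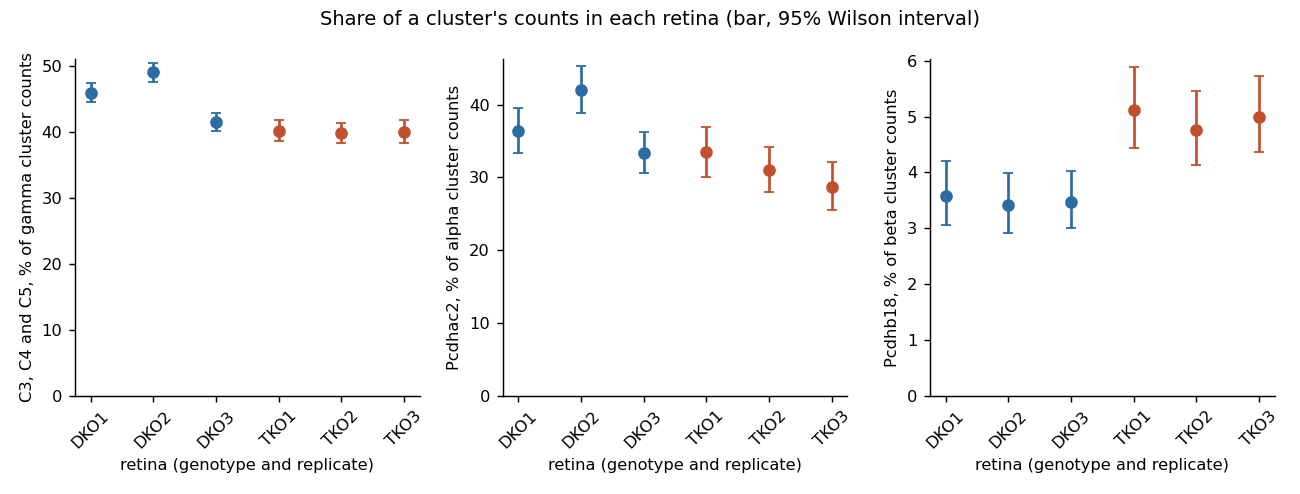
Share of a cluster's counts (vertical axes, % from 0) held in each retina by the gamma C-type genes, by Pcdhac2 and by Pcdhb18, with 95% Wilson intervals; DKO retinae are blue and TKO retinae orange. The gamma C-type share is 39.8% to 40.1% in TKO and 41.5% to 49.0% in DKO, and the Pcdhb18 share is 4.76% to 5.11% in TKO and 3.41% to 3.58% in DKO.

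The genes around the clusters were measured as a local reference. Of the 10 tested genes on each side, 20 in all, 0 passed edgeR's test, against 16.6% of all genes. An unadjusted p under 0.05 was found for 2 (10%, against 33.1% of all genes). The groups were separate in 5 (25%, against 38.6%). Their median log2 fold change was 0.03. The 20 include Pcdh1 and Pcdh12, which are also among the unclustered protocadherins below. Those with an unadjusted p under 0.05 were Cd14, which encodes a co-receptor for bacterial lipopolysaccharide (log2 fold change -0.70, adjusted p = 0.15), and Hdac3, which encodes a histone deacetylase (log2 fold change -0.26, adjusted p = 0.0726). Taf7, a gene of the general transcription factor TFIID that lies between the beta and gamma clusters, had a log2 fold change of 0.10 (adjusted p = 0.541).

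Genes that act on protocadherin promoter choice were described as a list of 20, all of them tested, of which 1 rose and 2 fell, a share near the 16.6% of all genes that passed. Uhrf1, which brings the maintenance methyltransferase to newly replicated DNA, had 81.4, 194 and 402 normalized counts in TKO and 1564, 1329 and 811 in DKO (log2 fold change -2.46, adjusted p = 0.0134). Dnmt1, that methyltransferase, had 1667, 1742 and 2292 against 3607, 3076 and 2700 (log2 fold change -0.72, adjusted p = 0.0163). In both genes the groups were separate, and within each genotype replicate 3 lay nearest to the other genotype. The 8 genes of dividing cells fell as well, with a median log2 fold change of -2.71. Their part in the values of Uhrf1 and Dnmt1 was not tested. Tet3, an oxidase that starts the removal of DNA methylation, rose, with 3026, 2564 and 2116 against 1562, 1340 and 1673 (log2 fold change 0.75, adjusted p = 0.0122).

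The genes of the proteins that fold the locus did not pass the test. Ctcf, which binds protocadherin promoters and the enhancers of the clusters, had a log2 fold change of 0.09 with a 95% interval of -0.07 to 0.25. Rad21, a cohesin subunit, had -0.27 (adjusted p = 0.0806), and passed under scaling by totals (0.0288) and without DKO retina 3 (0.0314). Wapal, the cohesin release factor WAPL, had 0.41 with separate groups (adjusted p = 0.0531), and the cohesin loader Nipbl had 0.45 with overlapping ones (adjusted p = 0.0778). DESeq2 called both of these in addition, 5 of the 20 in all. Smchd1, a repressor of the clusters, had -0.10 (adjusted p = 0.609), and Dnmt3a, a de novo methyltransferase, had 0.25 (adjusted p = 0.119). None of Uhrf1, Dnmt1 and Tet3 passed without TKO retina 2 (adjusted p = 0.066, 0.0755 and 0.0527), and likewise without DKO retina 1 (0.0548, 0.0604 and 0.0511) or DKO retina 2 (0.0557, 0.0614 and 0.0569). Dnmt1 also did not without TKO retina 1 (0.0546), nor Uhrf1 with robust dispersion estimates (0.0552). The 3 kept their direction in all of these fits.

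Of 21 partners and signalling genes downstream of the protocadherins, 5 fell and 0 rose. They were Marcks, an actin-binding substrate of protein kinase C (log2 fold change -0.85, adjusted p = 0.0167), Fyn, a Src-family kinase (-0.35, adjusted p = 0.0202), Nlgn1, a synaptic adhesion molecule (-0.38, adjusted p = 0.0279), Rac1, a GTPase of the actin cytoskeleton (-0.33, adjusted p = 0.043), and Ret, a receptor tyrosine kinase (-0.38, adjusted p = 0.0438). Cyfip2 and Nckap1, of the WAVE complex that alpha protocadherins recruit, were the best counted and had log2 fold changes of -0.02 and -0.17. Among all genes 9.20% were lower, against 5 of these 21. The median of the list was -0.12. No gene of the list passed without TKO retina 1 or 2 or without DKO retina 1 or 2, where the calls over all genes fell from 2799 to 1307, 712, 811 and 647.

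Outside the clusters, 12 unclustered protocadherins were tested, and 1 rose and 1 fell, again close to the 16.6% of all genes. Pcdh15, a cadherin of hair cell tip links that photoreceptors also use, had 3560, 2734 and 1829 normalized counts in TKO and 1078, 883 and 1419 in DKO (log2 fold change 1.27, SE 0.248, adjusted p = 0.0139). Pcdh19, a delta protocadherin, had 485, 455 and 618 against 1159, 829 and 696 (log2 fold change -0.78, SE 0.194, adjusted p = 0.0295). Both groups of values were separate. Pcdh10, a delta protocadherin and with Pcdh15 the best counted of the list, had a log2 fold change of -0.17 (adjusted p = 0.196). Neither call held without TKO retina 2 (adjusted p = 0.0558 for Pcdh15 and 0.113 for Pcdh19), DKO retina 1 (0.0603 and 0.0748) or DKO retina 2 (0.062 and 0.0782), and that of Pcdh19 did not without TKO retina 1 (0.0931). The fold changes of both exceeded that of Pcdhb18 in size, while differences between them and the clustered genes were not tested.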

How the data were processed

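Total RNA of 6 P21 retinae was sequenced by stranded, paired-end mRNA sequencing. The deposited values are whole-number counts of reads per gene, which the authors made from alignments to GRCm38; replicates were not pooled. The submitters' processing notes name TopHat2, featureCounts and DESeq2, whereas the published methods name STAR and HTSeq, and which of them made the counts is not settled here. The published methods allow up to 3 alignments a read. The counter's strand setting and its rule for reads that overlap several genes, which matters for shared exons, are not given in the sources used here. Nothing states that the 3 retinae of a genotype came from separate litters, so p-values measure the spread between these retinae.

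Genes with a summed count of at least 10 were fitted with edgeR 4.0.16 (R 4.3.3; TMM scaling, quasi-likelihood F test, genotype as the only term, two-sided), and p-values were adjusted by Benjamini-Hochberg over all 16904 of them. The study used DESeq2, run here (1.42.0) as an alternative. Normalized counts are counts divided by TMM-scaled library size and multiplied by the mean of those sizes. Intervals are at 95%. The fit was tested on simulated data. Gene positions and lengths are from GENCODE M21, and synonyms from RefSeq. No sequences are shown. Same-numbered retinae deviated from their group means with correlations of 0.05, -0.05 and -0.16, so the numbers were not taken to pair them.

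Named are Hells, Rb1 and Rbl1, members past the adjusted p, the 3 best counted and the 2 with the largest fold changes of each subgroup, members whose call differed in DESeq2, and of each list the genes past the adjusted p and the 2 best counted. Others are named for their values or role. The members and lists were chosen with earlier results of these data known.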

Additional observations from a re-analysis of the deposited data

How the results depend on the processing

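The count of 1 member higher and 0 lower was recomputed under 14 alternatives. Higher members ranged from 0 to 4 and lower ones from 0 to 1 with each retina left out. Lower members were 1 under upper-quartile scaling (Pcdhgc4) and 4 under scaling by library totals (Pcdhgc3, Pcdhgc4, Pcdhac2 and Pcdhga3). A threshold of 0.1 on the adjusted p gave 3 higher and 3 lower. With the study's criteria 0 members were called, 1 without a minimum fold change, 1 with a minimum log2 fold change of 0.5, and 0 to 1 with each retina left out. With the replicate number as a block, 0 members passed, and 106 genes in all against 2799. The replicate numbers were not taken to pair the retinae. Under the block the regulators, the partners and the unclustered protocadherins past the test each fell to 0. The main counts of these lists were 3, 5 and 2, and with each retina left out they ranged from 0 to 5, 0 to 5 and 0 to 3. The regulators past the test were 6 under scaling by totals and 5 with DESeq2, and the unclustered protocadherins 4 under scaling by totals.

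Scaling by library totals moved the median log2 fold change of the alpha, beta and gamma clusters to -0.053, -0.019 and -0.060, and the log2 ratio of their summed levels to -0.18, -0.0015 and -0.22. It turned Pcdha3 (-0.053), Pcdha7 (-0.042), Pcdhgb7 (-0.14), Pcdhga2 (-0.028) and Rbl1 (-0.036) below 0, where upper-quartile scaling also put Pcdhgb7 (-0.011). With each retina left out, the alpha median ran from -0.082 to 0.14 and the gamma median from 0.0033 to 0.18. Fold changes near 0 crossed it: Pcdha2 ran from -0.24 to 0.14, Pcdha3 from -0.10 to 0.41, Pcdha7 from -0.067 to 0.44, Pcdhac1 from -0.33 to 0.041, Pcdhgc5 from -0.38 to 0.036, Pcdhb9 from -0.13 to 0.046, Pcdhgb7 from -0.12 to 0.20, Cyfip2 from -0.061 to 0.036 and Rbl1 from -0.15 to 0.36. Per all exonic bases the median level was 2.05 in place of 2.95. Filters on low counts, DESeq2 size factors and robust dispersion left the calls of members at 1 higher and 0 lower. The causes were not tested beyond the construction of each alternative. The sparsest member, Pcdhb1, had 39 counts over all retinae, and the sparsest alpha gene, Pcdha8, had 59. With 3 retinae a group, differences in such sparse members were not detectable unless large.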
